A study of Mus musculus with 2 samples.

Results

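The actin cytoskeleton and motility genes are a fixed list of 42 genes that build, turn over, crosslink, contract or anchor actin filaments. They were taken by gene symbol, with no threshold on a measured value, and 41 of them had a row among the 20330 gene identifiers of the deposited table. Arpc4, a subunit of the Arp2/3 complex, had no row under its identifier, so its expression was not analysed here. All 41 passed the filter, which asked for an FPKM of 1 or more in either library, as did 10297 genes in all. FPKM is the number of fragments per kilobase of transcript, scaled to the mapped fragments of the library, and it allows levels of different genes to be set side by side.

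RNA sequencing was done to compare WT macrophages with macrophages in which HIF-1α, a transcription factor subunit that accumulates in low oxygen, was targeted. Adipose tissue macrophages (ATM) were sorted by F4/80 and CD11b from visceral fat of C57BL/6 mice after 12 weeks of a high-fat diet. The WT library came from hMRP8cre-;Hif-1αfl/fl;ApoE-/- mice and the KO library from hMRP8cre+;Hif-1αfl/fl;ApoE-/- mice, so that both groups carried loxP-flanked Hif1a alleles and lacked functional ApoE, and differed by the Cre transgene. Cre was driven by the human MRP8 promoter, which is active in myeloid cells. In the study's methods the diet started at an age of 4 weeks, and sex and the number of animals behind a library are not given in the sources used here. There was 1 library for each genotype, so no difference below has a replicate check, no test was possible, and library and genotype cannot be told apart. In bulk RNA of a sorted population, fewer cells of a type and less RNA per cell cannot be told apart either.

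Actin monomers polymerise into filaments whose growth at the cell edge pushes the membrane forward. Thymosins and profilin hold and deliver monomers, the Arp2/3 complex starts branches when WASP family proteins activate it, cofilin and its partners cut old filaments, capping proteins stop their ends, and myosin II pulls on them. Macrophages use this machinery to crawl through tissue, to form podosomes and to engulf particles.

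The members were abundant in both libraries. Their FPKM summed to 19781 in WT and 15653 in KO, which was 3.38% and 2.75% of the summed FPKM of each library. The 5 highest by mean, Tmsb4x, Actb, Cfl1, Actg1 and Pfn1, made up 12912 of that sum in WT and 9743 in KO. The smallest estimated number of fragments behind a member was 164 in WT, for Arpc1a, and 174 in KO, for Twf2.

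On the scale of log2(FPKM + 1), KO minus WT, 26 members were lower (22 to 28 under other scalings of the libraries) and 15 higher in the KO library, and the median change was -0.10 (-0.12 to -0.03 under those scalings) with quartiles of -0.54 and 0.07. Past 3-fold on this scale there was 1 member in the lower direction (Evl) and 0 in the higher, against 13.7% lower and 13.6% higher of all genes past the filter. Most of those genes were scarcer than the members. Of the 4987 genes at a mean FPKM of at least 10, a level that every member reached, 6.84% were 3-fold lower and 5.86% were 3-fold higher. The share of members past 3-fold was 2.44% lower and 0.00% higher. Of the 748 genes at a mean FPKM of at least 100, as 24 of the members were, 1.47% were 3-fold lower and 0.668% were 3-fold higher, and of those 24 members 0 were. With 1 call in 41 members, the count is not a result about the members.

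At 1.5-fold, 8 members (19.5%) were lower and 2 (4.88%) higher, where 22.9% and 24.0% of the genes at a mean FPKM of at least 10 were. Both shares were under their background, the lower one by little. Of all members, 63.4% were lower by any amount, against 48.7% of all genes past the filter and 49.2% of genes at a mean FPKM of at least 10. Among the 24 members at a mean FPKM of at least 100, 15 (62.5%) were lower by any amount and 4 (16.7%) by 1.5-fold, and 0 were 1.5-fold higher. Of the genes at that level, 51.5% were lower by any amount, 11.2% were 1.5-fold lower and 10.3% were 1.5-fold higher. The median change of these 24 members was -0.12 and that of the 748 genes was -0.01, so the middle of the list sat a little under the middle of equally abundant genes.

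**Figure D1:**
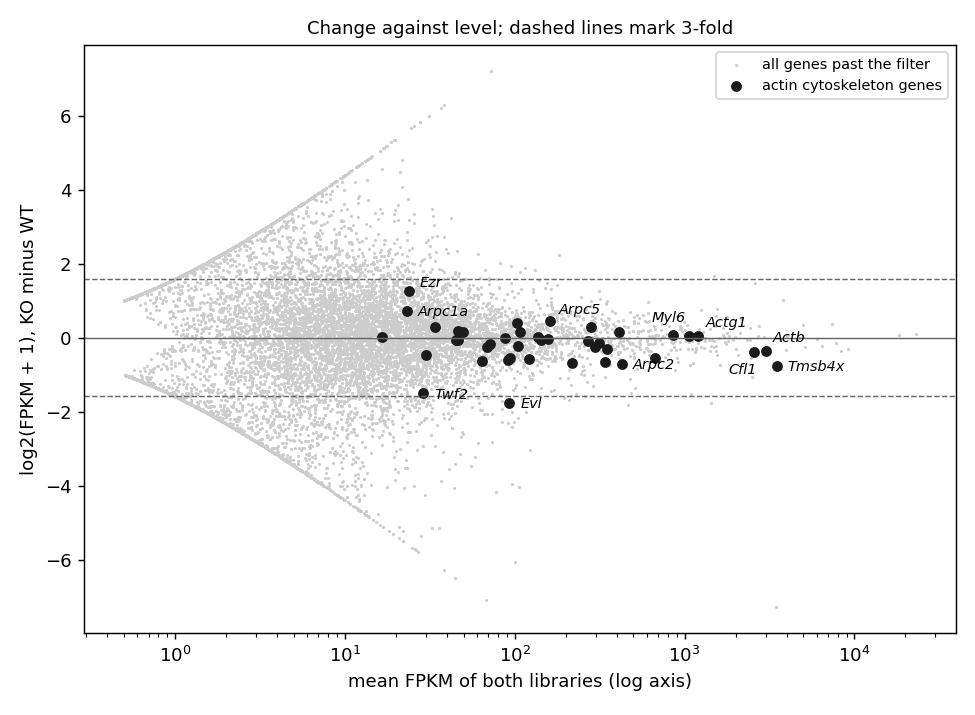
Change of each gene on the log2(FPKM + 1) scale, KO minus WT, against its mean FPKM in both libraries on a log axis, with the actin cytoskeleton genes as black points over all 10297 genes past the filter in grey. The members lie at the right, where changes are small, and Evl, at -1.76, is the 1 black point beyond the dashed 3-fold lines.

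Transcript length moved with the change across the libraries, and its part in the members' values was not tested. Among genes at a mean FPKM of at least 100, the median change was -0.13 for the 178 genes with a transcript under 1000 nt, -0.05 for the 250 of 1000 to 2000 nt, 0.05 for the 227 of 2000 to 4000 nt, and 0.14 for the 77 longer ones. The members at that level had medians of -0.14 (5 genes), -0.46 (8 genes) and -0.05 (10 genes) in the first 3 classes, and 0.39 for Wasf2, which was alone in the longest. The class of 1000 to 2000 nt holds Actb, Arpc2, Coro1b, Cotl1, Capg and Capzb, which were lower in KO, and Actg1 and Arpc5, which were higher. Its members' median stood further below that of all genes than in the other classes.

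The labels and the sort were checked first. Hif1a, the targeted gene, had 30.4 FPKM in WT and 20.97 in KO, so it was still listed in the KO library. Adgre1, which encodes F4/80, had 299 and 239 FPKM, and Itgam, which encodes CD11b, had 128 in both. Of 10 macrophage markers past the filter, 6 were lower and 4 higher in KO, with a median change of -0.01, and C1qb, Lyz2 and C1qc were the highest at 4726, 3936 and 3437 FPKM in WT and 4663, 4080 and 2809 in KO. Apoe transcripts were listed at 94.3 and 117 FPKM.

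Markers of other cells were read next, although a gate on F4/80 would remove neutrophils, fibroblasts and muscle cells. The FPKM of the 11 neutrophil markers in the table summed to 158 in WT and 523 in KO. The highest were S100a9 (63.4 and 301), S100a8 (73.3 and 182) and Csf3r (15.5 and 24.1). Of the granule genes of that list, Ltf, Camp, Mmp8 and Elane were at 0 in both libraries, and Ngp (2.61 FPKM) and Mpo (2.29 FPKM) were listed in KO alone. The 7 fibroblast markers summed to 49.2 FPKM in WT and 95.3 in KO, with Dcn, Dpt and Col3a1 at 35.0, 5.99 and 5.18 FPKM in WT and 62.3, 11.1 and 7.46 in KO. Of 8 smooth muscle markers, 5 were at 0 in both libraries, Acta2 and Myh11 among them, and Cnn1, Tagln and Myocd did not exceed 1.49 FPKM in either. Of 6 striated muscle markers, 5 were at 0 in both and Tnnt3 had 0.31 FPKM in KO alone. The part of neutrophil or fibroblast RNA in the members' values was not tested.

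The monomer group held the members with the highest levels. Actb and Actg1 encode the cytoplasmic β- and γ-actins. Actb had 3383 FPKM in WT and 2639 in KO, a change of -0.36. Actg1 had 1186 and 1229 FPKM, a change of 0.05. The lower actin sum of the KO library, 3868 against 4569 FPKM, therefore lay in the β-actin gene, and its share of both actins was 74.0% in WT and 68.2% in KO. Actb is widely used as a reference gene for normalising transcripts, and by the deposited FPKM its level was 1.28 times as high in WT as in KO.

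The β-thymosins are small proteins that bind actin monomers 1 to 1 and keep them out of filaments. Tmsb4x was the highest member in WT, with 4389 FPKM, and had 2582 in KO, a change of -0.77. Among all genes it ranked at place 15 in WT and 24 in KO. Tmsb10 had 804 and 545 FPKM, a change of -0.56. Both genes were thus lower in KO by similar factors of 1.70 and 1.48, and Tmsb4x made up 84.5% of their sum in WT and 82.6% in KO. Within a library, where scaling plays no part, the β-thymosin sum was 1.14 times the actin sum in WT and 0.81 times in KO. The transcripts of Tmsb4x and Tmsb10 (768 and 690 nt) are shorter than those of Actb and Actg1 (1920 and 1952 nt). The part of transcript length in this ratio was not tested.

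The coding sequences of both β-thymosins are shown here because these short transcripts were both lower in KO. They are 135 bases each, differ at 40 positions and are 70.37% identical, with the differing bases in capitals, and the principal transcripts share no run of 50 bases with each other. Tmsb4x shares none with any other annotated gene, whereas 43.5% of the runs of Tmsb10 are also in transcripts of 6 other genes, chiefly the coding gene Gm9844 (33.2%). They come from GENCODE M21 on build GRCm38, minus strand, where Tmsb4x lies at chrX:167207093-167209315 and Tmsb10 at chr6:72957347-72958748.
Tmsb4x: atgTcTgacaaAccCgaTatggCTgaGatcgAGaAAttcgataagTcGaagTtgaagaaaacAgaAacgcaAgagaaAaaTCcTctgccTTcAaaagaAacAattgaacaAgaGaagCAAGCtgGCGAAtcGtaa
Tmsb10: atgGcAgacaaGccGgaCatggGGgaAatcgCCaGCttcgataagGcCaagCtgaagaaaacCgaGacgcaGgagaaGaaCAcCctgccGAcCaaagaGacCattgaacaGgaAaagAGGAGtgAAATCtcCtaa

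Of the other monomer-binding members, Pfn1 and Cap1 were at nearly the same level in both libraries and Twf2 was lower in KO. Pfn1 encodes profilin, which loads monomers with ATP and passes them to growing ends, and it had 1047 FPKM in WT and 1077 in KO. The ratio of Pfn1 to the β-thymosin sum was 0.20 in WT and 0.34 in KO. Cap1, a protein that recycles monomers released by cofilin, had 146 and 140 FPKM. Its value carries a limit of counting, because Ppt1 overlaps it on the opposite strand and had 120 and 84.4 FPKM. Twf2 encodes twinfilin-2, which binds monomers and filament ends, and it had 43.4 FPKM in WT and 14.6 in KO, a change of -1.51. At a ratio of 2.97 between the libraries, it was the member just inside the 3-fold limit, and it lies on GRCm38 at chr9:106203108-106215389, plus strand. The median change of the 7 genes of this group was -0.36, with 5 lower and 2 higher, where 49.2% of all genes at a mean FPKM of at least 10 were lower.

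**Figure D2:**
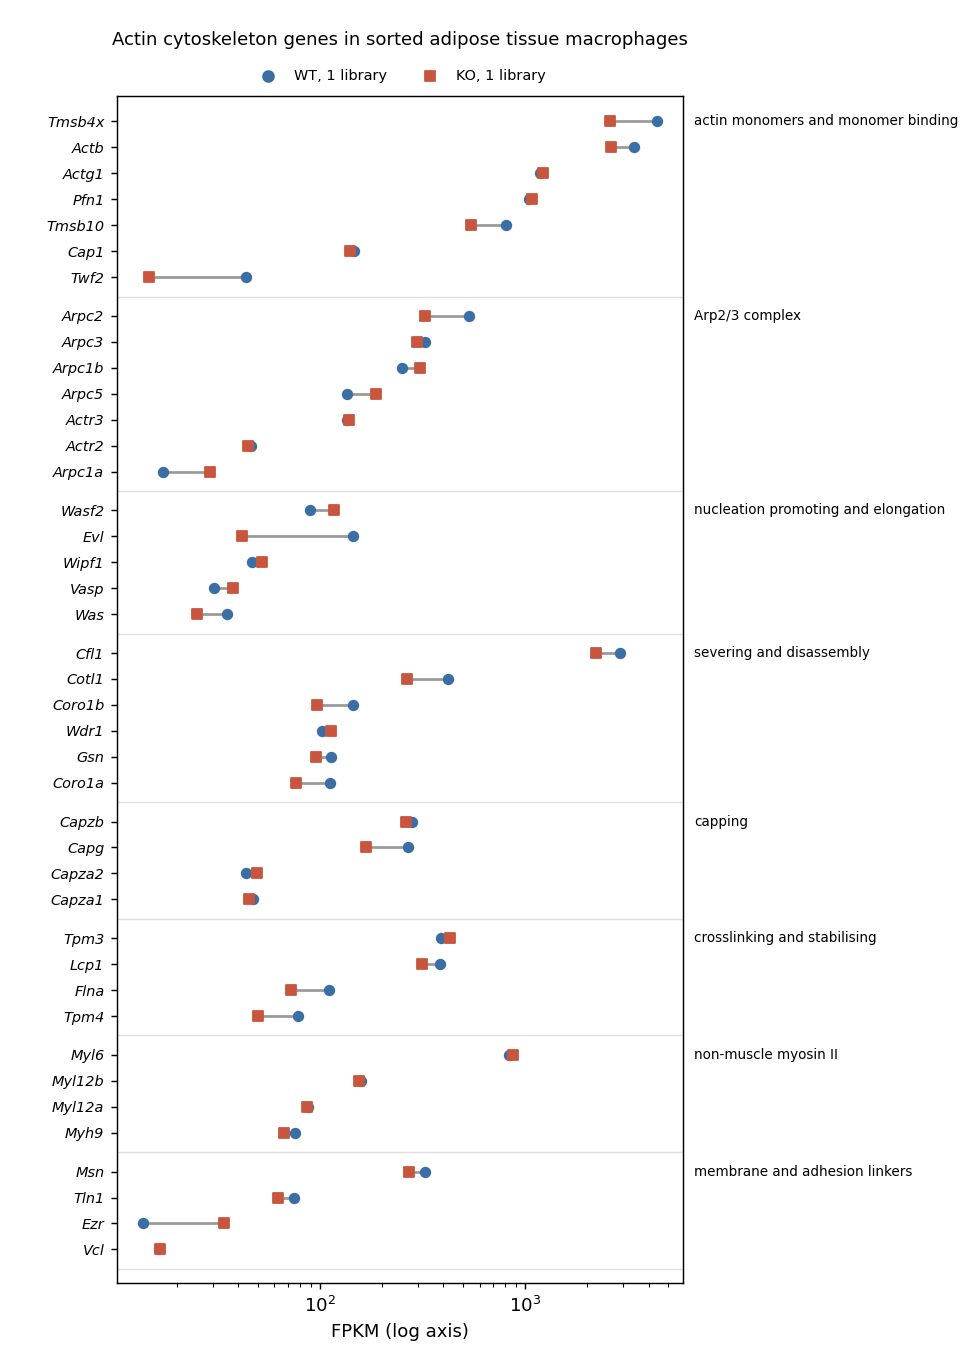
FPKM of each of the 41 members on a log axis, grouped by role, with a blue circle for the WT library and a red square for the KO library, and no error bars since each genotype had 1 library. The widest gaps belong to Evl (144 and 41.8), Twf2 (43.4 and 14.6) and Ezr (13.7 and 34.2), and most other pairs of symbols lie close together.

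The Arp2/3 complex starts a new filament as a branch on the side of an existing one. Its 2 actin-related subunits were at nearly the same level in both libraries, with 46.4 and 44.5 FPKM for Actr2 and 135 and 138 for Actr3. Arpc2, which with Arpc4 forms the core that grips the mother filament, had 535 FPKM in WT and 326 in KO, a change of -0.71. Arpc3 had 327 and 297 FPKM. The levels of Arpc2 and Arpc3 were closer together in KO, where their ratio was 1.10, than in WT, where it was 1.64.

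The remaining subunits were higher in KO. Arpc5 had 136 FPKM in WT and 187 in KO, a change of 0.45. Arpc1b, the Arpc1 isoform of blood cells, had 253 and 309 FPKM, a change of 0.29. Arpc1a, the isoform of other tissues, had 17.1 and 29.1 FPKM, a change of 0.73, which was the second largest higher value of the list. Arpc1b stayed the main isoform, since Arpc1a made up 6.35% of both in WT and 8.61% in KO. Arpc5l, an isoform of Arpc5 outside the list, had 9.59 FPKM in KO and was listed at 0 in WT.

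The complex had 3 subunits lower and 4 higher, near the 49.2% of all genes at a mean FPKM of at least 10 that were lower. Its median change was 0.03, which was Actr3's own and became -0.00 when the libraries were centred on the median gene. The highest subunit had 31.3 times the level of the lowest in WT and 11.2 times in KO. Without Arpc1a these spans were 11.5 and 7.33. The proteins join in equal numbers, with Arpc1a and Arpc1b as alternatives for the same place, and their transcripts were spread over a wide range in both libraries. The highest subunit in WT was Arpc2, which was lower in KO, whereas the ratio of Actr3 to Actr2 was 2.92 in WT and 3.09 in KO. The narrower span in KO was therefore not a trait of all subunits.

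Nucleation promoting factors switch the Arp2/3 complex on, and Ena/VASP proteins extend filament ends. Was encodes WASP, the factor of blood cells that acts in podosomes and phagocytic cups, and it had 35.3 FPKM in WT and 25.2 in KO, a change of -0.47. Wasf2 encodes WAVE2, which acts in lamellipodia, and it had 89.0 and 117 FPKM, a change of 0.39. The share of Was in their sum was 28.4% in WT and 17.7% in KO. Wipf1, the partner that protects WASP from degradation, had 46.7 and 52.3 FPKM.

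Evl, an Ena/VASP protein that feeds monomers to growing ends, had the largest change of all members. It had 144 FPKM in WT and 41.8 in KO, a change of -1.76, and the estimate of depth put about 1847 and 681 fragments behind these values. Its paralogue Vasp had 30.6 and 37.6 FPKM, a change of 0.29. Evl was 4.72 times as abundant as Vasp in WT and 1.11 times in KO, so that Vasp made up 17.5% of their sum in the first library and 47.3% in the second. The sum of both was 175 FPKM in WT and 79.4 in KO. The principal transcript of Evl shares no run of 50 bases with any other annotated gene, and Degs2, whose exons overlap it on the opposite strand, was far lower than Evl in WT and listed at 0 in KO.

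The upstream sequence of Evl is shown because it is the member past 3-fold and HIF-1 is the factor whose subunit was targeted. It was read from the RefSeq promoter table of build GRCm38.p6 at chr12:108554557-108554712, plus strand, that is, from base -163 to base -8 relative to the gene start. The HIF core was searched as ACGTG and GCGTG on both strands, and the capitals mark its matches at bases -153 and -52, which read on the opposite strand.
Evl: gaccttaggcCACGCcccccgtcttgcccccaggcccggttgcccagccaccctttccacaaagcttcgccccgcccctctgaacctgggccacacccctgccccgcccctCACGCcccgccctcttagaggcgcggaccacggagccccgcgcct

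Ezr is shown for the same reason as the member with the largest higher value. The stretch lies at chr17:6782781-6782875 of the same build, minus strand, from base -95 to base -1, with its match at base -35 in capitals.
Ezr: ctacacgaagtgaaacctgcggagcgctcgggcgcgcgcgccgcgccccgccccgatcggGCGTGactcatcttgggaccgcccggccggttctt

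Such matches were common. The core was in a promoter of 29 of the 38 members that had a window in the table (76.32%), of 68.36% of genes past the filter and of 46.73% of all genes with a window of these 300 bases. A match is a description of letters and was not tested as a site. Actb, Coro1b, Cotl1 and Twf2 had no entry in that table.

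The role named severing and disassembly also holds the coronins and Cotl1, which bind filaments. Of its members, 5 of 6 were lower, with a median change of -0.46. Of all genes at a mean FPKM of at least 10, 49.2% were lower, and the count is too small to be set apart from that share. The coronins and Cotl1 had the lowest changes of the role, and Cfl1, Gsn and Wdr1 had -0.39, -0.24 and 0.15. Cfl1, the non-muscle cofilin that cuts aged filaments, had 2907 FPKM in WT and 2216 in KO, a change of -0.39. Its ratio to the actin sum was 0.64 and 0.57. The muscle isoform Cfl2 had 1.14 FPKM in KO and was listed at 0 in WT. Cotl1, a coactosin that binds filaments and belongs to the cofilin fold, had 419 and 266 FPKM, a change of -0.66.

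Coronins bind filaments and guide cofilin and Arp2/3 to them. Coro1a, the coronin of leukocytes, had 111 FPKM in WT and 76.4 in KO, a change of -0.54, and Coro1b had 144 and 97.0, a change of -0.57. They were lower by nearly the same factor, and Coro1a made up 43.6% of their sum in WT and 44.1% in KO. Both values carry a limit of counting, because Bola2 overlaps Coro1a on the opposite strand and had 85.1 and 217 FPKM, and 20.8% of the 50-base runs of Coro1b are also in annotated transcripts of Ptprcap, at 15.3 and 4.46 FPKM. Gsn, the calcium-dependent severing protein gelsolin, had 113 and 95.9 FPKM. Wdr1, the cofilin cofactor Aip1, was the member of this group that was not lower, with 102 and 113.

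Capping protein closes the growing ends of filaments as a dimer of an α and a β chain. Capzb, the β chain, had 280 FPKM in WT and 261 in KO. Capza1 had 47.4 and 45.0 FPKM and Capza2 had 43.4 and 49.4. The libraries differed by at most 1.14-fold in these 3, and the α chain genes contributed in nearly equal parts, with Capza1 at 52.2% of their sum in WT and 47.7% in KO. Capg, a calcium-regulated capping protein abundant in macrophages, differed more, with 269 FPKM in WT and 167 in KO, a change of -0.68.

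Of the crosslinking and stabilising members, 3 of 4 were lower, with a median change of -0.46, a count too small to be set apart from that share of 49.2%. Lcp1, the leukocyte plastin that bundles filaments, had 384 FPKM in WT and 313 in KO, a change of -0.30. Flna, filamin A, which joins filaments into networks and ties them to integrins, had 111 and 71.9 FPKM, a change of -0.62. Tropomyosins wrap filaments and set which proteins may bind them, and the 2 of the list went different ways. Tpm4 had 77.9 and 49.9 FPKM, a change of -0.63, and Tpm3 had 388 and 430.4, a change of 0.15. Tpm3 made up 83.3% of their sum in WT and 89.6% in KO.

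**Figure D3:**
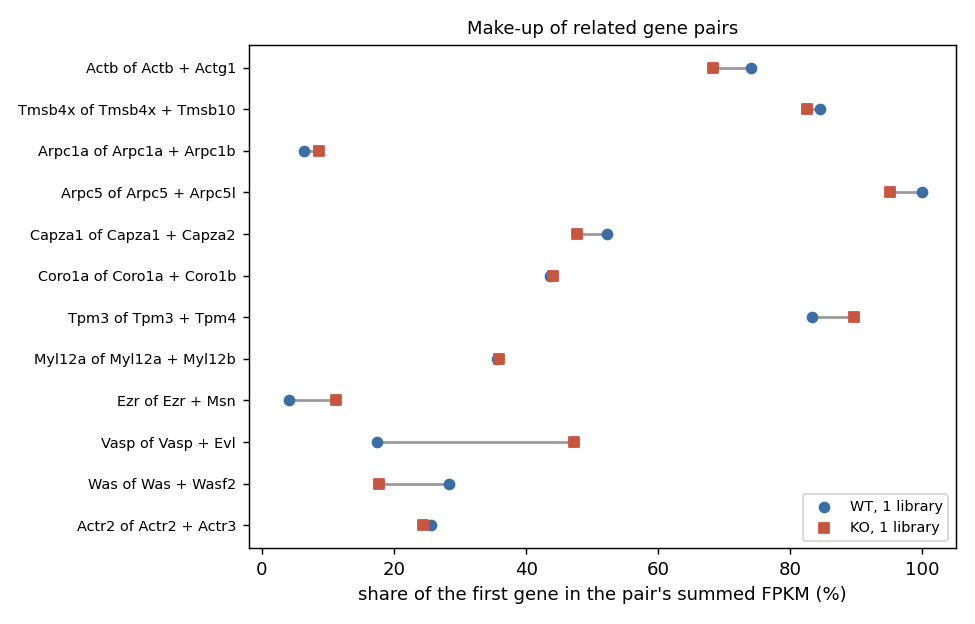
Share of the first gene in the summed FPKM of 12 pairs of related genes, in percent, with a blue circle for the WT library and a red square for the KO library. The share of Vasp in Vasp plus Evl moves from 17.5% to 47.3%, and the regulatory light chain and coronin pairs stay in place.

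Non-muscle myosin II, the motor that contracts actin networks, had the most even values of all roles. Its heavy chain gene Myh9 had 75.9 FPKM in WT and 66.9 in KO. The essential light chain gene Myl6 had 835 and 877 FPKM. The regulatory light chain genes Myl12a (87.7 and 86.9) and Myl12b (159 and 155) kept a share of 35.5% and 35.9% for Myl12a. Their principal transcripts share 10.2% of the 50-base runs of Myl12a and 9.17% of those of Myl12b, so that fragments could be counted for either. A further gene identifier with the symbol Myl12b has exons that overlap both genes and had no row. Over all annotated transcripts named Myl12b, the shared part of Myl12a was 29.2%. Of the runs of Myl12b, 33.0% are in transcripts of other annotated genes. No member of the group changed by more than 0.18, and the group median of -0.02 changed sign under 2 of the scalings tried, at 0.02 and 0.04.

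Linkers tie filaments to the membrane and to adhesions. Msn, moesin, the main protein of its family in leukocytes, had 325 FPKM in WT and 271 in KO, a change of -0.26. Ezr, ezrin, had 13.7 and 34.2 FPKM, a change of 1.26 and the largest higher value of the list, from about 254 and 807 fragments by the estimate of depth. Moesin stayed the more abundant of the pair, with Ezr at 4.03% of their sum in WT and 11.2% in KO. Tln1, talin, which activates integrins, had 74.4 and 62.5 FPKM, and Vcl, vinculin, which reinforces talin under load, had 16.5 and 16.7.

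The serum response factor SRF, with its actin-sensing partners MRTF-A and MRTF-B, binds the CArG box and drives many cytoskeletal genes. The transcript of Srf had 8.07 FPKM in WT and 25.5 in KO, a change of 1.55. Those of Mrtfa (39.7 and 39.6) and Mrtfb (14.5 and 13.8) were close. A CArG box was found in a promoter window of 4 of 38 members (10.53%), of 1.687% of genes past the filter and of 1.806% of all genes with a window. These members were Actg1, Vcl, Myl6 and Arpc4. The 3 of them in the table had changes of 0.05, 0.01 and 0.07, and Actg1 and Myl6 share 56.7% and 53.3% of their 50-base runs with other annotated genes. The search took exact matches to CCWWWWWWGG, with W for A or T, in windows of 300 bases. Looser or more distant boxes were not counted, and Actb, Coro1b, Cotl1 and Twf2 had no window and were not searched.

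The matches of Actg1, Vcl and Myl6 are shown because these 3 were the members in the table in which a CArG box was found. The box is in capitals. The stretches are from the same RefSeq table, build GRCm38.p6, at chr11:120348536-120348635 on the minus strand for Actg1 (match at base -90), chr14:20929148-20929220 on the plus strand for Vcl (base -227) and chr10:128493040-128493069 on the minus strand for Myl6 (base -50). The start used for Myl6 is an internal one, within the gene as GENCODE M21 annotates it, and the Myl6 window further upstream held no CArG box.
Actg1: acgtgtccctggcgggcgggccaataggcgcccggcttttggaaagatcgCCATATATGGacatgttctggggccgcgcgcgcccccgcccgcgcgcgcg
Vcl: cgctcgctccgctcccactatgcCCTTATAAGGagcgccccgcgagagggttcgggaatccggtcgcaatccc
Myl6: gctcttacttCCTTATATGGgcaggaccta

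Other cytoskeletal genes were read from 7 lists of 112 genes, none of them members. Of the 98 past the filter, 51 were lower and 47 higher in KO, where 48.7% of all genes past the filter were lower. Past 3-fold, 6 were lower and 6 higher, where 13.7% and 13.6% of all genes past the filter were. The median change was -0.05, against -0.10 for the members. The counts of lower genes in the single lists below are too small to be set apart from that share of 48.7%.

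Kinases and phosphatases of actin signalling had 8 of 13 genes lower, where 48.7% of all genes past the filter were, with a median of -0.33. The highest were Ssh2 (39.1 and 42.9 FPKM), Pak2 (33.8 and 25.6) and Ppp1cb (19.4 and 32.9). Limk1, the kinase that inactivates cofilin, had 1.75 FPKM in WT and 10.6 in KO, a change of 2.08. WAVE and other nucleation factors were split evenly, with 8 lower and 8 higher and a median that rounds to -0.00, and the highest were Brk1 (210.3 and 134.6), Nckap1l (127 and 98.3) and Hcls1 (80.1 and 87.2). Other actin-binding proteins had 11 lower and 16 higher of 27, with a median of 0.05. In that list Tagln2 (735 and 759), Marcksl1 (398 and 404) and Lsp1 (238 and 172) were the highest, and Dbnl, at 17.0 and 53.3 FPKM, was past 3-fold with a change of 1.59.

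The other myosins had 5 of 9 genes lower, where 48.7% of all genes past the filter were, with a median of -0.36. They were led by Myo1g (69.4 and 53.8 FPKM), Myo1c (52.2 and 55.7) and Myo1f (47.5 and 32.7). Adhesion and podosome genes had 9 of 15 lower, with a median of -0.22, led by Zyx (141 and 169), Pxn (128 and 134) and Ilk (135 and 118). Tubulins and intermediate filaments, which are not actin, had 8 of 15 lower, with a median of -0.04. Vim was the highest of them at 1487 and 1435 FPKM, followed by Lmna (252 and 299) and Tuba1b (342 and 169), and Tubg1, at 27.4 and 5.68 FPKM, was 3-fold lower with a change of -2.09.

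**Figure D4:**
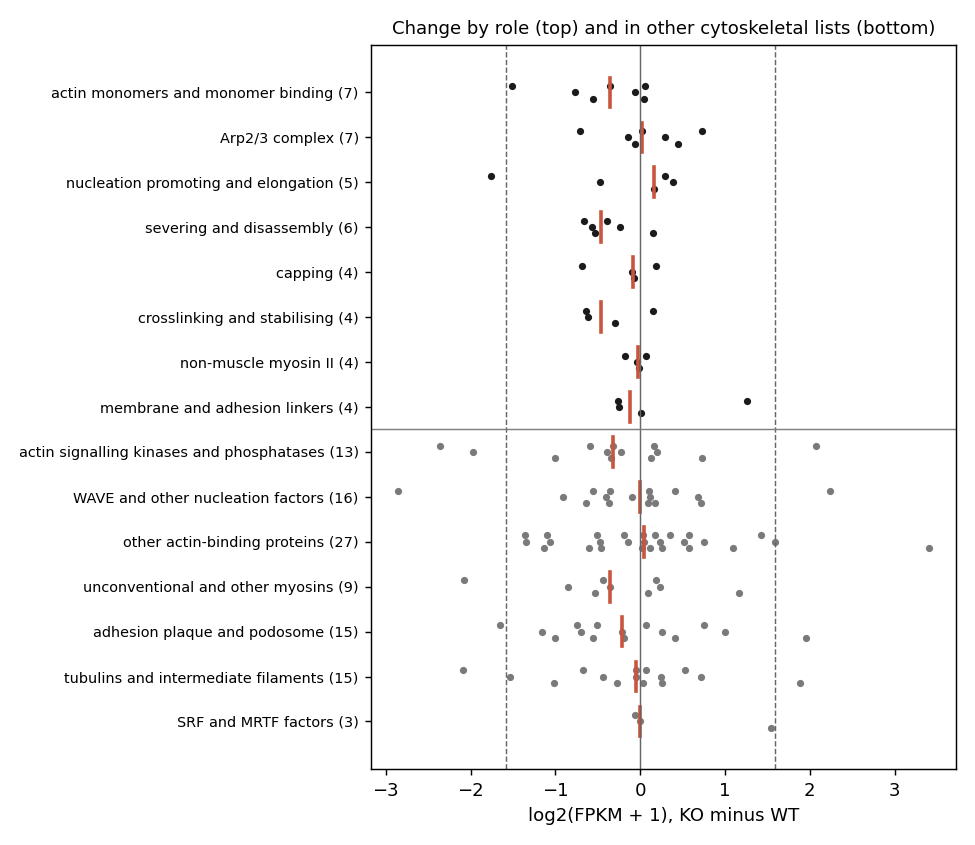
Change of each gene on the log2(FPKM + 1) scale, KO minus WT, in the 8 roles of the actin cytoskeleton genes (black) and in 7 other cytoskeletal lists (grey), with the number of genes in brackets, the median as a red bar and 3-fold as dashed lines. Medians of the roles run from -0.46 for severing and disassembly (with the coronins and Cotl1) and for crosslinking to 0.16 for nucleation promoting and elongation. The grey lists scatter more widely around 0.

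Sequence shared with other genes limits some of these values, since the sources used here do not give how fragments with several matches or their strand were treated. Of the 41 members, 19 had no run of 50 bases in common with any other annotated gene, among them Tmsb4x, Pfn1, Evl, Twf2, Cotl1, Capg and Flna. In 12 members at least 10% of the runs were shared, and in 4 at least 50%. These 4 were Capza1 (73.8%), Tpm3 (62.4%), Actg1 (56.7%) and Myl6 (53.3%), chiefly with pseudogenes or, for Tpm3, the copy Tpm3-rs7. Actb shared 14.2% and Cfl1 9.11%. The 4 members at 50% or more had changes between -0.07 and 0.15. Of the others at 10% or more, Tmsb10 (43.5% shared), Coro1b (20.8%) and Tpm4 (12.1%) had changes of -0.56, -0.57 and -0.63, and Actb had -0.36. Actr3 (49.8%), Myl12b (33.0%), Myl12a (29.6%) and Arpc1b (12.8%) had changes of 0.03, -0.03, -0.01 and 0.29. Evl and Twf2 shared none and Ezr shared 0.19%. Exons of 12 members overlap a coding gene of the opposite strand that has a row in the table. Among these are Ppt1 beside Cap1 (120 and 84.4 FPKM), Snx32 beside Cfl1 (15.5 and 1.81) and Creb3 beside Tln1 (32.6 and 5.61). Without strand such reads cannot be told apart.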

How the data were processed

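The authors deposited 1 table with an FPKM value per gene for each of the 2 libraries. Per the submitters' processing notes, CASAVA 1.8.2, TopHat2 2.0.9, Cufflinks 2.2.1 and the build mm9 were used. The annotation, the options and the treatment of strand and of multiple matches are not given in the sources used here. The labels give 1 library that is not WT, so the mutant column was read as KO.

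From the 20749 rows, 401 full repeats were dropped and 18 further rows were summed by identifier, none of them a member's. Symbols, lengths and positions were taken from GENCODE M21 (GRCm38), with which 20035 of 20330 identifiers matched, and promoters (250 bases before to 50 after a gene start) from a RefSeq table of GRCm38.p6. Change was log2(FPKM + 1), KO minus WT, in the deposited scaling, for genes that reached an FPKM of 1 in either library. The pseudocount of 1 understates the change of low genes. With 1 library per genotype no test, error or p-value exists, and counts are read beside the same share over all genes. Python 3.11.15 and pandas 2.3.3 were used, and the procedure was tested on simulated data.

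Depth was estimated from the smallest recurring value of FPKM times length in kilobases, taken as 1 fragment, which was 0.170 in WT (19 genes) and 0.134 in KO (21 genes). It gave 5.87e+06 and 7.47e+06 fragments. PCR copies are not independent, so such numbers cover counting error only. FPKM summed to 585823 and 568329.

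The members, the 7 other cytoskeletal lists and the 11 marker lists were chosen with earlier results of these data known, and 1 further list is not reported here. All members were named. Of other cytoskeletal lists, the 3 highest genes by mean FPKM and those past 3-fold with an FPKM of at least 10 in a library were named, of marker lists the 3 highest, and Hif1a, Apoe, Adgre1 and Itgam as checks. Markers at 0, and those printed as the level of a whole list, were added after their values were seen. Alternatives were other pseudocounts, scalings, filters, thresholds and the treatment of repeated rows.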

Additional observations from a re-analysis of the deposited data

How the results depend on the processing

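Each member's change, the median of the members, the role medians and the counts were recomputed under 11 alternatives. A median was taken as kept within 0.1, a single member within 1.5-fold and a count within 1.5 times. Thresholds, filters and repeated rows could not alter a member's change, the scalings shifted all genes nearly alike by less than the allowance, and pseudocounts matter little at the members' levels, so that single members stayed within the allowance says nothing of their stability. The counts moved at other thresholds, with 2 members lower and 1 higher at 2-fold, and 8 lower and 2 higher at 1.5-fold. Under other scalings of the KO library the median of all genes moved by 0.04 (same summed FPKM), 0.06 (same upper quartile) and -0.03 (median change of 0), the members lower in KO numbered 24, 22 and 28, and the members' median was -0.05, -0.03 and -0.12, so its size of -0.10 is no larger than the allowance and depends on the scaling. Cap1, Actr2, Actr3, Vcl, Myl12a and Myl12b, which all had changes within 0.07 of 0, changed sign in at least 1 of them, as did the medians of the Arp2/3 complex and of myosin II. No paired analysis was possible because there was 1 library for each genotype, and for the same reason no library could be left out. The members rested on at least 164 estimated fragments in WT and 174 in KO, and the spread between animals was not measured.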

Other observations

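Ttll3, a tubulin ligase gene whose annotated exons overlap those of Arpc4 on the same strand, had 82.1 FPKM in the WT library against 48.8 in the KO library, and Arpc4 itself had no row. Genes of the marker lists of further cell types were low or at 0 in both libraries, apart from Pf4 (1448 FPKM in WT and 2115 in KO), Fabp4 (90.1 and 91.4) and Cd2 (23.6 and 29.3). Which cells these transcripts came from was not tested. Of the platelet list that holds Pf4, Gp9 and Treml1 were at 0 in both libraries. The other platelet markers past the filter were led by Gp1bb (0.24 and 8.76) and Ppbp (5.16 and 1.57), the adipocyte genes Adipoq and Plin1 were at 0 in both, and of the adipocyte list Cidec (5.83 and 0) and Lep (0 and 1.60) followed Fabp4. The T cell receptor genes Cd3e, Cd3g and Cd3d were at 0. Endothelial markers were led by Pecam1 (6.67 and 8.70), Cdh5 (5.53 and 5.98) and Tie1 (4.12 and 0), B cell markers by Cd79b (0 and 5.52), Cd79a (2.50 and 0.22) and Ms4a1 (0.25 and 0.27), and of 6 mesothelial markers Upk3b (0 and 7.84) was the one above 0.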
